A study of Mus musculus with 24 samples.

Results

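The genes described here are those of the mouse major histocompatibility complex (MHC) and of antigen presentation on the array: every symbol beginning with H2-, together with Cd74, B2m, Tap1, Tap2, Tapbp, Psmb8, Psmb9 and Ciita. The rule found 47 genes among those annotated, each represented by its probe with the highest mean intensity. Of these, 38 had a probe above background in at least 3 of 24 arrays and entered the tests, among 14544 genes tested in all. They comprised 12 of 12 class II genes (the chain genes, the H2-DM and H2-O genes, Cd74 and Ciita), 19 of 28 class I heavy chain genes, 6 of 6 genes of the class I light chain and peptide supply, and H2-Ke6, which carries an H2 symbol for its place in the region only. The 9 genes that did not pass were H2-M1, H2-M10.2, H2-M10.4, H2-M10.5, H2-M10.6, H2-M5, H2-Q2, H2-T18 and H2-T3, all class I heavy chains. Of the 38 genes tested, 28 were above background on every array.

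MHC class I molecules, made of a heavy chain and the light chain beta-2-microglobulin (B2m), are carried by nearly all nucleated cells and display peptides from inside the cell. The proteasome with its immune subunits Psmb8 and Psmb9 cuts these peptides, the transporter Tap1 and Tap2 moves them into the endoplasmic reticulum, and tapasin (Tapbp) helps to load them. MHC class II molecules are made mainly by macrophages, dendritic cells and B lymphocytes, travel with the invariant chain Cd74, receive endosomal peptides with the help of H2-DM, and are switched on by the transactivator Ciita; adipocytes have also been described to carry them.

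The samples were whole subcutaneous adipose tissue of C57BL/6J mice, measured on Illumina bead arrays as total RNA. Adn-C/EBPα-/- mice were set against control littermates in 3 settings: 3 days on chow, 3 days on high fat diet and 1 month on high fat diet. Adn-PPARγ-/- mice were set against their own littermate controls at 3 days on chow. All of these diets contained doxycycline, in controls and knockouts alike. The question in the series title is which programs of mature adipocytes depend on C/EBPα and PPARγ, both transcription factors of adipocyte identity. Mice were 10 weeks old in the sets of 3 days and 14 weeks old in the set of 1 month. Each of the 8 groups held 3 arrays. The labels do not expand the prefix Adn, write the knockout genotype in the genotype field of the controls as well, and do not say whether each array came from a separate animal, so that p-values measure the spread between these arrays. Diet duration, age and array set changed together in the set of 1 month, and cannot be told apart between sets.

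Values are background-corrected intensities on a linear scale. Each set of 6 arrays appears to have been normalized on its own, so that knockout levels were compared only with controls of the same set. The probe of each gene was chosen by its mean over all 24 arrays, and the marker sums add intensities of different probes. Changes are log2 differences, knockout minus control, of the corrected intensity plus 16, with their standard error (SE), from limma over all 24 arrays, and a gene was called at a Benjamini-Hochberg adjusted p under 0.05 over all genes tested. In whole tissue, fewer cells of a type and less RNA per cell cannot be told apart.

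The targeted gene Cebpa was lower in its knockouts in each set. Its corrected intensities were 436, 483 and 541 in the chow controls against 229, 258 and 216 in the knockouts, and 896, 739 and 872 in the controls of 1 month against 50.5, 78.0 and 54.1 in the knockouts. Cebpa also fell in the PPARγ knockouts, from 1107, 1088 and 1290 to 407, 421 and 476, a log2 change of -1.38 ± 0.14 beside -1.005 ± 0.14 in the C/EBPα knockouts on chow. In the PPARγ knockouts the 3 Pparg probes disagreed, with log2 changes of 1.10, 1.24 and -1.08, and the labels do not say which exons were deleted. The adipocyte markers were well above background in the controls (Adipoq at 13329, 12007 and 11924 in those of 1 month).

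The class II genes share a promoter layout known as the SXY module, in which an X box is bound by the RFX complex and a Y box by NF-Y, and on which Ciita acts. Of the 38 genes tested, 27 were found by symbol in RefSeq's promoter windows (build GRCm38.p6, 250 bases before to 50 after each start), and 8 of these were class II genes. The following 80-base stretches are from class II genes described below. They show the X and Y cores in H2-Eb1, H2-DMb1, H2-Oa and H2-Ob. In H2-Aa they show the Y core and no X core of the spellings searched. Other spellings, such as the ggcaac in the H2-Aa stretch, were not searched. Capitals mark an X box core (AGCAAC or AGTAAC) and the Y box core read on the opposite strand (ATTGG, the reverse of CCAAT). Each sequence is written 5′ to 3′ on the strand of its gene.
H2-Aa (chr17:34287847-34287926, minus strand): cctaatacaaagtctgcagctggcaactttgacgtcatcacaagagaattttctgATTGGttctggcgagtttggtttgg
H2-Eb1 (chr17:34305753-34305832, plus strand): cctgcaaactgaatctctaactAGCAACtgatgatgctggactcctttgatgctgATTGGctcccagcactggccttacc
H2-DMb1 (chr17:34153075-34153154, plus strand): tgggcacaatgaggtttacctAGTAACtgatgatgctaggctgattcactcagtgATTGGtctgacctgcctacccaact
H2-Oa (chr17:34092281-34092360, plus strand): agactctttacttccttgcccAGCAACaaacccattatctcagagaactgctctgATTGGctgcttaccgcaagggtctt
H2-Ob (chr17:34238793-34238872, plus strand): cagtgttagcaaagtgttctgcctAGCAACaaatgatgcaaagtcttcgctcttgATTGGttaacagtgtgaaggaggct

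The Y box core lay 48 bases before the annotated start in H2-Aa, 59 in H2-Eb1, 61 in H2-DMb1, 43 in H2-Oa and 57 in H2-Ob (position -48, -59, -61, -43 and -57). The 2 cores were 33 bases apart in H2-Eb1, 34 in H2-DMb1 and H2-Oa, and 31 in H2-Ob, while the H2-Aa window held no X core of this spelling. CCAAT, searched on both strands, was present in 8 of 8 class II genes, in 12 of 13 class I heavy chains, in 4 of 5 light chain and peptide supply genes and in 37.4% of the 32851 promoters of the table. An X core (AGCAAC or AGNAACNG) followed by ATTGG at a distance of 28 to 40 bases, a spacing chosen after these promoters were seen, was present in 5 of 8 class II genes, the fifth being H2-Eb2, and in 0.146% of all promoters. A C/EBP motif (TTGCNNAA) was found in 0 of 8 class II windows and in 10.8% of all promoters, and a PPAR response motif (AGGTCANAG) in 0 of 8 and in 2.01%. With only 8 windows these counts are near the shares of all promoters, and nothing is read from them. Cd74, H2-Ab1 and Ciita were among the class II genes without a window, so their promoters were not searched. A match is a description of the letters in these windows and not of a bound site.

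After 1 month of high fat diet the class II genes were higher in the C/EBPα knockouts in part, while the class I heavy chains H2-K1 and H2-D1 and the light chain were not called. Of the 38 genes, 8 rose and 0 fell, against 18.1% of all genes tested called in this comparison (9.51% higher and 8.62% lower). Among the class II genes 5 of 12 rose (41.7%): Cd74, H2-DMa, H2-DMb1, H2-Ab1 and H2-Aa. Their median log2 change was 0.45 over the 12 genes, against 0.01 over all genes tested. Of the 19 class I heavy chains only H2-M3 rose, and the median was -0.02. Of the 6 light chain and peptide supply genes, Psmb8 and Psmb9 rose. The plot of log2 changes shows all 38 genes in the 4 comparisons.

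**Figure D1:**
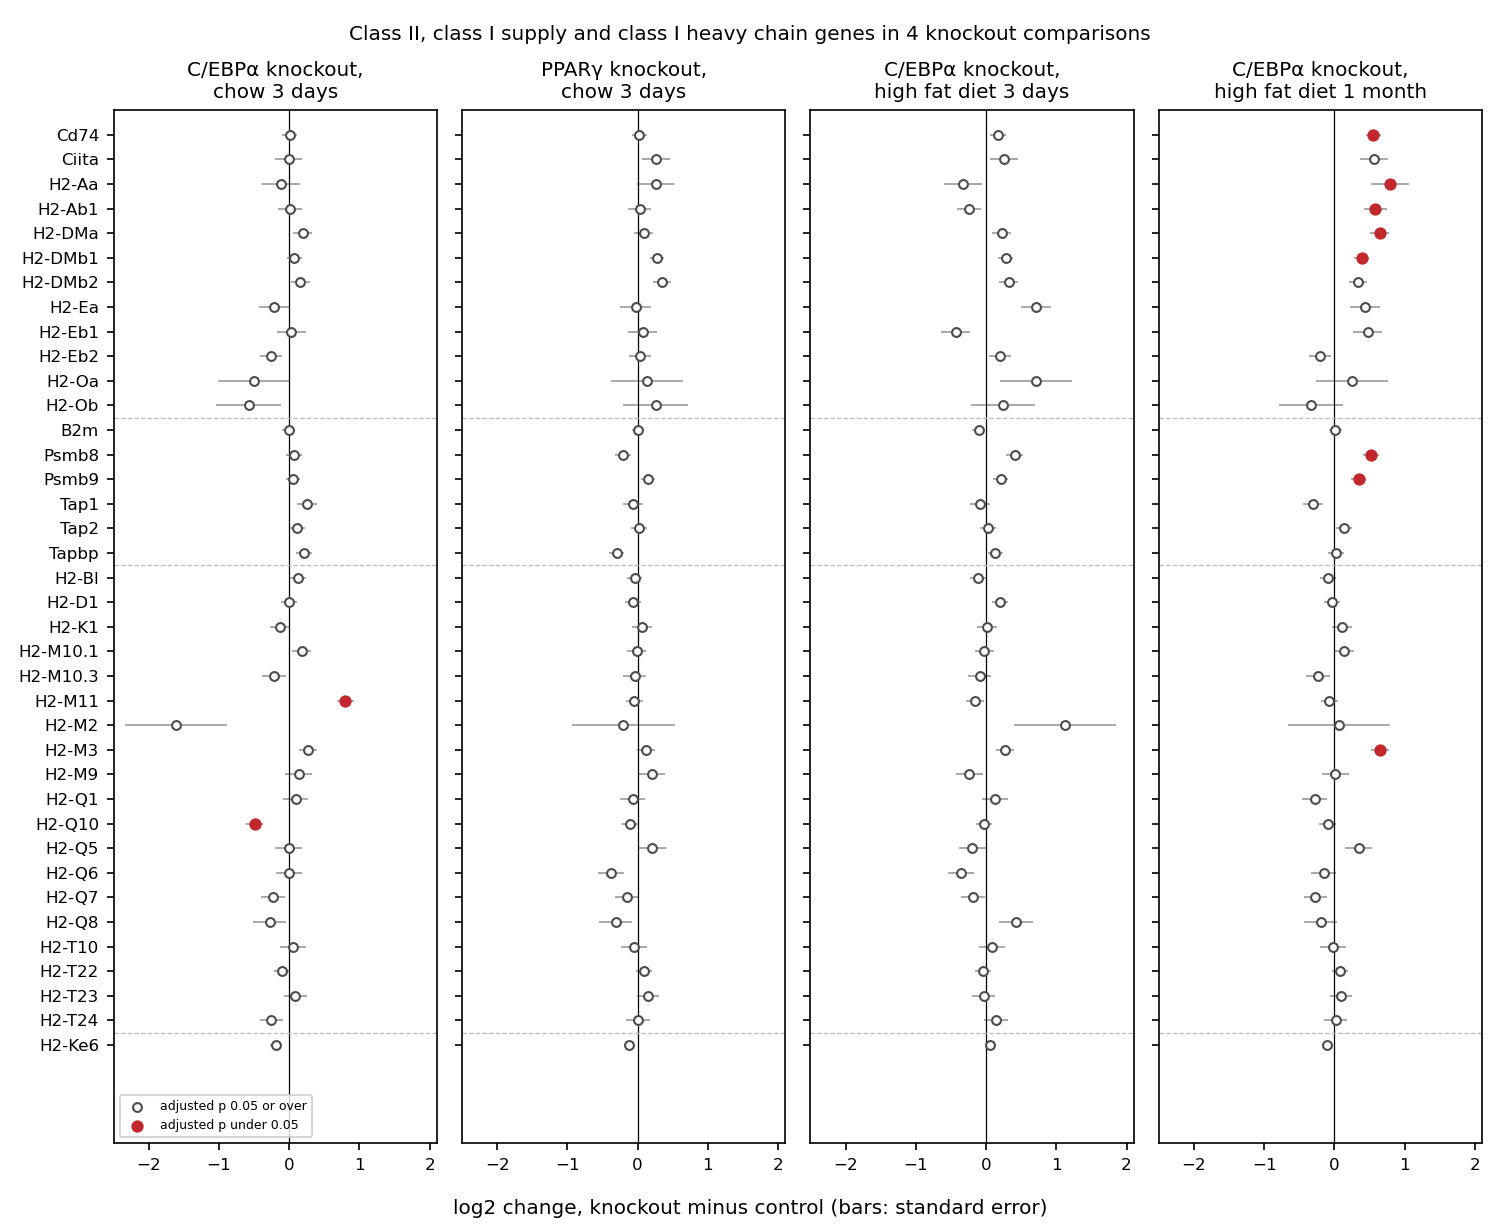
Log2 change, knockout minus control, of the 38 MHC and antigen presentation genes tested in the 4 comparisons, with bars for the standard error; filled points have an adjusted p under 0.05. From top to bottom the dashed lines separate class II, class I light chain and peptide supply, class I heavy chain and H2-Ke6; 8 filled points lie at 1 month of high fat diet, all above 0, and 2 in the C/EBPα knockouts on chow.

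Cd74 encodes the invariant chain that blocks the class II groove during transport. Its corrected intensities at 1 month were 7128, 8305 and 7484 in the controls and 10762, 12700 and 10249 in the knockouts, that is 7639 ± 604 against 11237 ± 1292 (mean ± SD, n = 3). The groups did not overlap, and the log2 change was 0.55 ± 0.11 (SE, adjusted p = 0.000954). All 3 Cd74 probes on the array were called higher in a fit over single probes, with changes of 0.47, 0.55 and 0.74. In the other sets the groups overlapped: the intensities were 9853, 10711 and 10693 against 10005, 11224 and 10237 for C/EBPα on chow, 5765, 6300 and 7273 against 6318, 5987 and 7351 for PPARγ, and 6270, 5823 and 5807 against 6830, 5943 and 7460 for C/EBPα at 3 days of high fat diet. The log2 changes there were 0.01, 0.02 and 0.17, with adjusted p-values of 0.979, 0.94 and 0.54.

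H2-Aa, H2-Ab1 and H2-Eb1 encode chains of the class II molecules that display peptide. At 1 month H2-Ab1 measured 4011, 7074 and 5839 in the controls and 7454, 10386 and 7160 in the knockouts. The lowest knockout lay just above the highest control, and the log2 change was 0.58 ± 0.16 (adjusted p = 0.0165), with all 3 probes called higher. That call was lost without control replicate 1 (adjusted p = 0.14) or without knockout replicate 2. H2-Aa measured 321, 519 and 388 against 537, 1301 and 499, so that the groups overlapped and 1 knockout array stood far above the rest. Its log2 change was 0.79 ± 0.27 (adjusted p = 0.0458), and without that array, knockout replicate 2, it was 0.35 with an adjusted p of 0.355. H2-Eb1 measured 2373, 4696 and 3700 against 4253, 6912 and 3765, also overlapping, with a log2 change of 0.47 ± 0.21 that did not pass the test (adjusted p = 0.129).

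In the sets of 3 days the chain genes did not pass the test in either direction. At 3 days of high fat diet H2-Eb1 measured 4428, 3270 and 3279 in the controls and 2309, 2960 and 2826 in the knockouts, all knockouts being below all controls (log2 change -0.43 ± 0.21, adjusted p = 0.36). H2-Ab1 measured 6365, 4742 and 5164 against 4476, 4296 and 4894 (log2 change -0.24 ± 0.16, adjusted p = 0.575), where its other probes gave 0.17 and -0.05 and the mean of the probes gave -0.04, and H2-Aa had a log2 change of -0.33 ± 0.27 (adjusted p = 0.666). On chow the changes of H2-Aa, H2-Ab1 and H2-Eb1 were -0.12, 0.01 and 0.03 in the C/EBPα knockouts and 0.26, 0.03 and 0.07 in the PPARγ knockouts. H2-Ea, known not to be transcribed in mice of the C57BL/6 haplotype, had controls at background in every set. Its knockout values were 11.5, 4.63 and 29.9 at 3 days (at least 1.33-fold higher, adjusted p = 0.101) and 10.6, 2.44 and 21.5 at 1 month of high fat diet (at least 1.15-fold, adjusted p = 0.193), with 2 of 3 knockout arrays above background in each, and neither difference passed the test. H2-Ea passed the filter only through these knockout arrays, so that its values are given as a description.

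**Figure D2:**
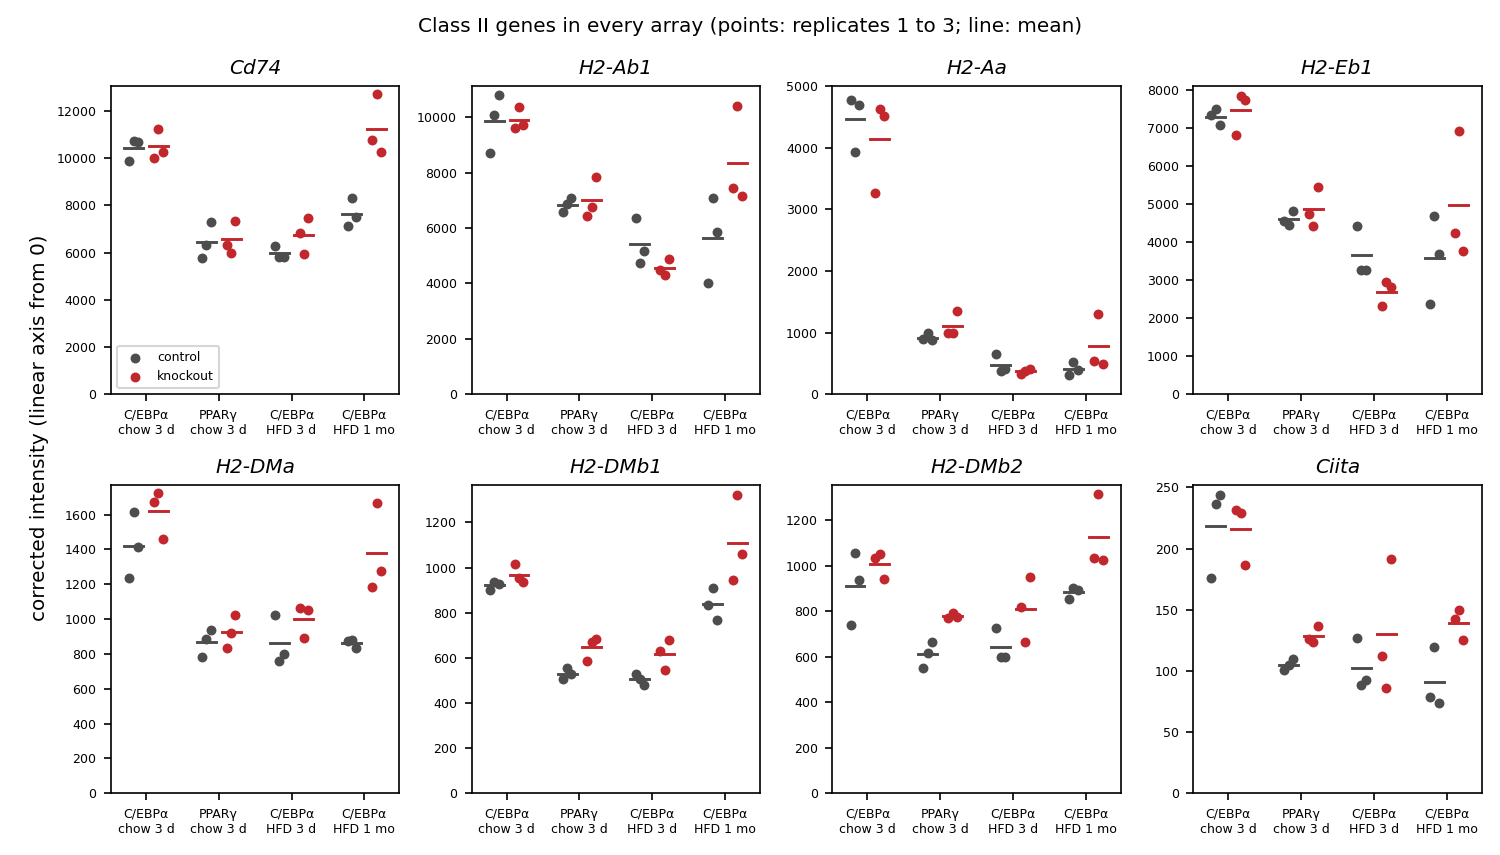
Corrected intensity (linear axis from 0) of 8 class II genes in every array; points are replicates 1 to 3 of the controls and the knockouts in each of the 4 sets and lines are group means. At 1 month of high fat diet (HFD 1 mo) Cd74 runs from 7128 to 8305 in the controls and from 10249 to 12700 in the knockouts, and knockout replicate 2 is the highest array for each of the 8 genes.

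H2-DMa, H2-DMb1 and H2-DMb2 encode the H2-DM chains that exchange the remnant of the invariant chain for peptide. At 1 month H2-DMa measured 876, 880 and 836 in the controls and 1187, 1669 and 1274 in the knockouts, a log2 change of 0.65 ± 0.13 (adjusted p = 0.00155), and both of its probes were called. H2-DMb1 measured 833, 909 and 769 against 945, 1323 and 1060, a change of 0.39 ± 0.11 (adjusted p = 0.0125). The H2-DMb1 call was lost without control replicate 3 or without knockout replicate 2 (adjusted p = 0.108 for the latter). H2-DMb2 measured 852, 902 and 892 against 1033, 1315 and 1023, separated groups with a change of 0.33 ± 0.13 that did not pass the test (adjusted p = 0.0893). H2-DMb1 and H2-DMb2 are close copies, and a bead probe may read both. In each of the other sets the H2-DMb1 values of the knockouts were also all above those of the controls, with changes of 0.07, 0.28 and 0.28 for C/EBPα on chow, PPARγ and C/EBPα at 3 days of high fat diet, none of which passed (adjusted p = 0.796, 0.113 and 0.208).

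Ciita, the transactivator that sets class II transcription, measured 78.8, 119 and 73.7 in the controls and 143, 150 and 125 in the knockouts at 1 month. The groups did not overlap, and the log2 change of 0.56 ± 0.20 missed the threshold (adjusted p = 0.0514). Over the 11 settings other than leaving out an array, the change of Ciita ran from 0.32 to 0.56. In all, 6 of 12 class II genes had knockouts all above controls at 1 month (Cd74, Ciita, H2-Ab1, H2-DMa, H2-DMb1 and H2-DMb2), against 17.8% of all genes tested (16.1% were separated downward), and 10 of 12 had a positive change. H2-Ea, whose controls were at background, is among those 10. Leaving out 1 array at a time, 3 to 7 class II genes were called. The count was 3 without control replicate 1, without control replicate 3 or without knockout replicate 2, and 7, now with Ciita and H2-Eb1, without control replicate 2. Without knockout replicate 2 the 3 genes were Cd74, H2-DMa and H2-Ea, and H2-Ea was in the tests only through knockout arrays. Cd74 and H2-DMa were called under each omission, with changes from 0.46 to 0.62 and from 0.50 to 0.75.

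The test of whether the knockout effect at 1 month exceeded that at 3 days of high fat diet called 0 of 38 genes in limma, against 1.8% of all genes tested (0.749% higher and 1.05% lower), with 6 higher and 0 lower at an unadjusted p under 0.05. Among all 14544 genes tested, 918 were higher and 873 lower at that unadjusted limit. The difference was 0.82 ± 0.23 for H2-Ab1 (adjusted p = 0.0841), 0.90 ± 0.29 for H2-Eb1 (adjusted p = 0.147), 1.12 ± 0.38 for H2-Aa (adjusted p = 0.181) and 0.38 ± 0.15 for Cd74 (adjusted p = 0.286). The H2-Ab1 difference depends on the probe, since its 3 probes disagreed in sign at 3 days. The class II rise at 1 month was therefore not shown to differ from the changes at 3 days. Without control replicate 2 of the set of 1 month, 1 gene, H2-Ab1, passed that test.

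The classical class I heavy chains H2-K1 and H2-D1 and the light chain B2m were not called in any of the 4 comparisons. At 1 month B2m measured 23212, 21111 and 20371 in the controls and 23421, 21436 and 20453 in the knockouts, a log2 change of 0.01 ± 0.09 (adjusted p = 0.96). H2-D1 measured 18017, 14760 and 15638 against 15583, 14710 and 16778 (log2 change -0.04 ± 0.11, adjusted p = 0.889). H2-K1 measured 966, 645 and 652 against 829, 779 and 781 (log2 change 0.10 ± 0.14, adjusted p = 0.733). Over the other sets the changes ran from -0.10 to 0.01 for B2m, from -0.06 to 0.20 for H2-D1 and from -0.13 to 0.06 for H2-K1, with overlapping groups except for H2-D1 at 3 days of high fat diet, where 12891, 13411 and 10819 stood against 14122, 14852 and 13557 (0.20 ± 0.11, adjusted p = 0.444). The class I heavy chain sequences are so alike that a probe may read several of them.

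H2-M3, a nonclassical heavy chain that presents formylated peptides, was the class I heavy chain that rose at 1 month. It measured 455, 516 and 494 in the controls and 775, 892 and 665 in the knockouts, a log2 change of 0.65 ± 0.13 (adjusted p = 0.000889), and remained called under each omission of an array, with changes from 0.54 to 0.75. In the other sets its changes were 0.26, 0.12 and 0.27 and did not pass. The Q and T heavy chains with bright probes (H2-Q5, H2-Q6, H2-Q7, H2-Q8, H2-T10 and H2-T23) had changes between -0.27 and 0.34 at 1 month, with overlapping groups in each.

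The immunoproteasome subunits rose, and the transporter genes were not called. At 1 month Psmb8 measured 2728, 2479 and 2138 in the controls and 3734, 3463 and 3323 in the knockouts, a log2 change of 0.52 ± 0.12 (adjusted p = 0.00305), with both probes called. Psmb9 measured 921, 892 and 814 against 1233, 1080 and 1038, a change of 0.34 ± 0.10 (adjusted p = 0.021), which was lost without control replicate 3 (adjusted p = 0.0981) or knockout replicate 1 (adjusted p = 0.109). Tap1 measured 108, 142 and 106 against 117, 87.7 and 76.4, a change of -0.31 ± 0.14 in overlapping groups (adjusted p = 0.166), which was called lower without knockout replicate 1 (-0.45, adjusted p = 0.039). Tap2 and Tapbp had changes of 0.14 ± 0.11 and 0.02 ± 0.11 (adjusted p = 0.489 and 0.934). At 3 days of high fat diet Psmb8 was also separated upward, at 2429, 2289 and 2001 against 2928, 2582 and 3451, with a change of 0.41 ± 0.12 that did not pass (adjusted p = 0.0767), and the effect at 1 month minus that at 3 days was 0.11 ± 0.17 (adjusted p = 0.873).

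Psmb9 and Tap1 are neighbours read in opposite directions from a shared promoter. In the RefSeq windows of GRCm38.p6 their annotated starts lay 226 bases apart, and the windows shared 275 bases (chr17:34187306-34187580). At 1 month the change was positive for Psmb9 and negative for Tap1, and the difference between the 2 genes was not tested.

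On chow for 3 days, 2 of the 38 genes were called in the C/EBPα knockouts, against 1.08% of all genes tested (0.55% higher and 0.529% lower), and neither was a class II gene. H2-M11, a nonclassical heavy chain of the M region, measured 7.84, 8.997 and 7.01 in the controls, none above background, and 27.6, 15.5 and 36.3 in the knockouts. The knockouts were at least 1.46-fold higher, by the bright group's mean over the lowest signal counted as above background (adjusted p = 0.00267 in the fit). H2-M11 passed the filter only through these 3 knockout arrays, so that it could enter the tests only by being high there, and its call is given as a description. It was at background in both groups of each other set. H2-Q10, a secreted heavy chain best known from liver, measured 94.9, 64.3 and 80.7 in the controls and 43.1, 56.3 and 56.5 in the knockouts (log2 change -0.49 ± 0.12, adjusted p = 0.0403). That call was lost on leaving out any array of the set other than control replicate 2, with adjusted p-values from 0.0542 to 0.146. Over all alternatives it was made in 18 of 34, and that of H2-M11 in 33 of 34. Of the 12 class II genes 6 had a positive and 6 a negative change, and 0 were called in limma (0 at an unadjusted p under 0.05). Among all 14544 genes tested, 1283 were higher and 1109 lower at that unadjusted limit. Knockouts were all above controls in 6 of the 38 genes and all below in 4, against 9.6% and 8.26% of all genes tested.

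In the PPARγ knockouts 0 of 38 genes were called in limma, against 9.43% of all genes tested (4.72% higher and 4.72% lower), with 2 higher and 2 lower at an unadjusted p under 0.05. Among all 14544 genes tested, 1767 were higher and 1492 lower at that unadjusted limit. Of the class II genes 11 of 12 had a positive change, with a median of 0.11 and a highest value of 0.35 ± 0.13 for H2-DMb2 (552, 616 and 664 against 769, 792 and 776, adjusted p = 0.108). With the probes of the gene averaged, the adjusted p of H2-DMb2 in limma was 0.949. Tapbp had the lowest adjusted p of the set, at 384, 400 and 453 in the controls and 360, 292 and 346 in the knockouts (log2 change -0.30 ± 0.11, adjusted p = 0.0949). Its second, dimmer probe was called lower in the fit over single probes (-0.59 ± 0.16, adjusted p = 0.0232). Knockouts were all above controls in 6 of the 38 genes and all below in 3, against 16.7% and 13.3% of all genes tested. At 3 days of high fat diet 0 of 38 genes were called in the C/EBPα knockouts as well, against 2.34% of all genes tested (0.811% higher and 1.53% lower), with 5 higher and 1 lower at an unadjusted p under 0.05. Among all 14544 genes tested, 986 were higher and 1025 lower at that unadjusted limit in this set. Without knockout replicate 2 of that set, 2 genes were called, Psmb8 and H2-Ea, the latter in the tests only through knockout arrays. Knockouts were all above controls in 5 of the 38 genes and all below in 1, against 8.9% and 9.57% of all genes tested. The test of the PPARγ effect against the C/EBPα effect on chow called 1 of the 38 genes, H2-M11, against 3.07% of all genes tested (1.31% higher and 1.77% lower). The test of 3 days of high fat diet against chow called H2-M11 as well, against 0.0688% of all genes tested (0.0138% higher and 0.055% lower). Both differences were set by the 3 chow knockout arrays that brought the gene past the filter, against groups at background, and nothing is read from them. The second call was lost in 20 of 24 omissions of an array and in 7 of 10 other settings.

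Other genes of the class II route were called in both the PPARγ knockouts and the C/EBPα knockouts at 1 month. The difference between these comparisons was not tested. At 1 month 4 of 15 rose (26.7%, against 9.51% of all genes tested) and 0 fell: legumain (Lgmn, 0.81 ± 0.13) and cathepsin S (Ctss, 0.43 ± 0.14), which cut antigen and the invariant chain, the thiol reductase Ifi30 (0.73 ± 0.19) and Marchf1 (0.56 ± 0.11), a ligase that removes class II from the surface. Lgmn measured 2535, 3012 and 2905 against 4515, 5751 and 4649, and Ifi30 measured 288, 455 and 416 against 524, 797 and 627. In the PPARγ knockouts the genes that rose were Lgmn (0.67 ± 0.13), Ifi30 (0.62 ± 0.19), Ctss (0.48 ± 0.14) and Marchf1 (0.43 ± 0.11), again 4 of 15, against 4.72% of all genes tested. At 3 days of high fat diet 1 of 15 rose, cathepsin L (Ctsl, 0.53 ± 0.13, adjusted p = 0.0341), against 0.811%. That count went to 0 without control replicate 1, control replicate 3 or knockout replicate 1 of the set. The subunits of RFX and NF-Y (Rfx5, Rfxank, Rfxap, Nfya, Nfyb and Nfyc) were not called in either comparison. Leaving out 1 array at a time, 2 to 4 genes of the route were called at 1 month and 1 to 3 in the PPARγ set, where leaving out control replicate 1 or 2 or knockout replicate 1 or 3 gave 1 and knockout replicate 2 gave 2. At 1 month the count was 2 without control replicate 1 or knockout replicate 2.

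Of the 12 other class I route genes, 4 rose at 1 month (33.3%, against 9.51% of all genes tested): Irf1 (0.55 ± 0.10), a transcription factor of class I and immunoproteasome genes, the third immunoproteasome subunit Psmb10 (0.33 ± 0.11), the tapasin-related Tapbpl (0.42 ± 0.14) and the disulfide isomerase Pdia3 (0.33 ± 0.11). Another 2 fell (16.7%, against 8.62%), and both present nonpeptide antigens. Cd1d1, which presents lipids to natural killer T cells, measured 5593, 4896 and 5357 in the controls and 1497, 1061 and 1228 in the knockouts, a log2 change of -2.06 ± 0.14 (adjusted p = 1.83e-09). It also fell at 3 days of high fat diet, from 3537, 3552 and 3127 to 1755, 2024 and 1655 (-0.91 ± 0.14, adjusted p = 0.000765), while on chow the changes were -0.04 ± 0.14 in the C/EBPα knockouts and -0.35 ± 0.14 in the PPARγ knockouts (adjusted p = 0.911 and 0.141). Mr1, which presents vitamin metabolites, changed by -0.54 ± 0.14 at 1 month (adjusted p = 0.0101), at intensities of 31.8, 25.8 and 18.6 against 7.79, 14.0 and 15.2. The constitutive proteasome subunits that Psmb8, Psmb9 and Psmb10 replace (Psmb5, Psmb6 and Psmb7) were not called, with changes from -0.25 to -0.05. With 1 array left out, the number of class I route genes called higher was 3 without control replicate 1, 1 without control replicate 2 or 3 and 2 without any of the knockout replicates. The number called lower was 1 without control replicate 1 or knockout replicate 1.

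Of 5 costimulatory genes 3 rose at 1 month, against 9.51% of all genes tested, namely Cd86 (0.82 ± 0.13), Cd40 (0.75 ± 0.21) and Cd80 (0.44 ± 0.15), and Icosl and Cd274 were not called. Cd86, a ligand of Cd28 on T lymphocytes, measured 438, 557 and 504 in the controls and 804, 1051 and 836 in the knockouts. Without control replicate 1 or control replicate 3 the count was 1 of 5. It was 2 without each knockout replicate in turn, and stayed at 3 without control replicate 2. In the PPARγ knockouts 0 of 5 were called in limma (1 higher and 0 lower at an unadjusted p under 0.05). Among all 14544 genes tested, 1767 were higher and 1492 lower at that unadjusted limit.

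**Figure D3:**
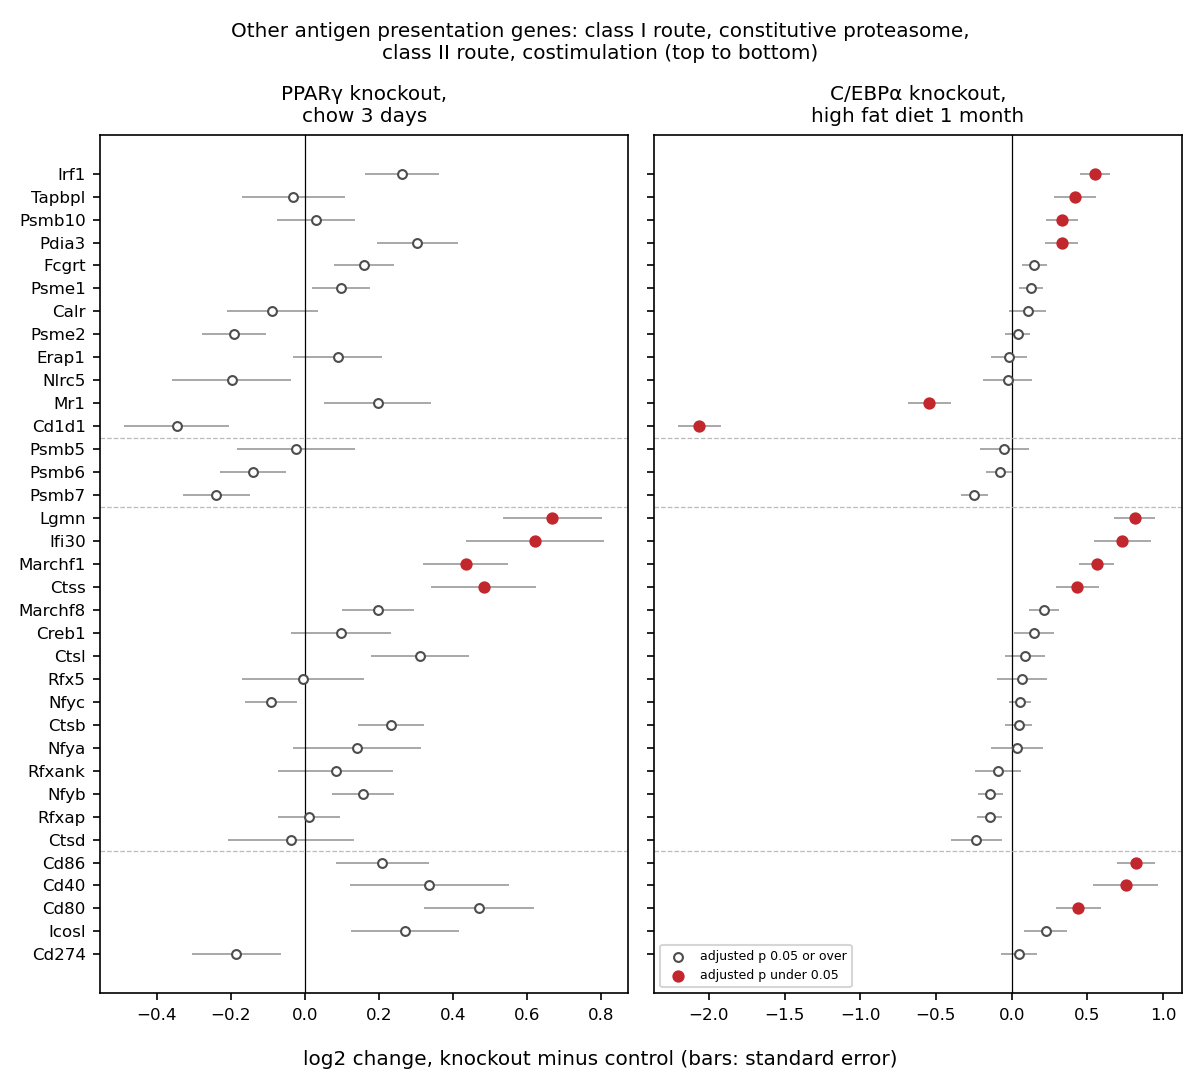
Log2 change, knockout minus control, with standard error, of antigen presentation genes outside the rule in the PPARγ knockouts on chow and the C/EBPα knockouts at 1 month of high fat diet (the panels have different horizontal scales); dashed lines separate the class I route, the constitutive proteasome, the class II route and costimulation. Lgmn, Ifi30, Marchf1 and Ctss are filled (adjusted p under 0.05) in both panels, and Cd1d1 stands at -2.06 in the right panel.

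Interferon-stimulated genes, a program that can raise class I genes, gave 5 higher and 1 lower of 24 at 1 month (20.8% and 4.17%, against 9.51% and 8.62% of all genes tested), among them Oas2 (0.62 ± 0.15), Oasl2 (0.64 ± 0.18), Igtp (0.58 ± 0.17) and, in the lower direction, Cxcl9 (-0.53 ± 0.16). In the PPARγ knockouts 5 of 24 rose (against 4.72% of all genes tested) and 0 fell, with a median of 0.28, including Oas2 (0.74 ± 0.15), Oasl2 (0.68 ± 0.18), Ifi35 (0.36 ± 0.10) and Cxcl10 (0.73 ± 0.21). With 1 array left out these counts ran from 1 to 4 higher at 1 month and from 1 to 6 in the PPARγ set. At 1 month the count was 3 without control replicate 1 or 2 and 1 without control replicate 3 or knockout replicate 1. In the PPARγ set it was 2 without control replicate 1 or knockout replicate 1, 1 without control replicate 2 or knockout replicate 2, and 3 without control replicate 3.

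Macrophage, dendritic cell and stromal markers were also higher at 1 month, in part or in most. Of the B lymphocyte markers 1 of 7 rose (median -0.07), and control replicate 2 was the highest array for Cd79b and Blk, as given below. Against 9.51% of all genes tested, 11 of 12 macrophage markers rose, with a median of 0.80, and all 12 were separated upward; their summed corrected intensity ran from 17009 to 18399 in the controls and from 27113 to 36707 in the knockouts. Mrc1 (0.97 ± 0.10), Cd14 (0.96 ± 0.11), C1qa (1.05 ± 0.13) and Csf1r (1.01 ± 0.13) had the smallest adjusted p-values. Of 10 dendritic cell markers 5 rose, among them Clec10a (1.48 ± 0.23), Clec9a (0.75 ± 0.15), Siglech (0.91 ± 0.20) and Cd209a (0.85 ± 0.20), and their sum ran from 717 to 835 against 1281 to 1808; Itgax and Xcr1 were below the filter. Of the adipocyte markers 9 of 9 fell, with Retn at least 6.25-fold lower. The part of any of these in the class II result was not tested. The class II genes, the macrophage markers and the dendritic cell markers shared their highest array, knockout replicate 2, at a mean log2 level of 0.60, 1.00 and 0.72 above their controls, against 0.27, 0.67 and 0.49 in replicate 1 and 0.25, 0.75 and 0.42 in replicate 3. The macrophage count was 8 without knockout replicate 2 or without control replicate 1. Of the 6 stromal markers 4 rose, against 9.51% of all genes tested, with a median of 0.66. Of the 8 endothelial markers 4 fell (against 8.62% of all genes tested), and 2 fell without control replicate 1 or knockout replicate 2. The counts of 1 of 7 B lymphocyte and 1 of 8 T lymphocyte markers were near the share of all genes, and went to 0 in 4 of 6 and 5 of 6 omissions of an array of the set.

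In the PPARγ knockouts 5 of 12 macrophage markers rose, against 4.72% of all genes tested (median 0.37, sum from 17661 to 19563 against 22468 to 26743). They were led by Cd14 (1.04 ± 0.11), C1qa (0.56 ± 0.13), C1qb (0.54 ± 0.13) and Mrc1 (0.39 ± 0.10). Of 10 dendritic cell markers 0 were called in limma (1 higher and 0 lower at an unadjusted p under 0.05, sum from 832 to 900 against 962 to 1214). Of the adipocyte markers 8 of 9 fell, against 4.72% of all genes tested. The macrophage count was 2 without control replicate 1, and 3 without control replicate 2 or knockout replicate 1. In the same arrays 0 of 12 class II genes were called in limma, 2 were higher at an unadjusted p under 0.05, 11 had a positive change and 4 were separated upward, with changes from -0.03 for H2-Ea to 0.35 for H2-DMb2. Among all 14544 genes tested, 1767 were higher at that unadjusted limit, 7667 had a positive change and 16.7% were separated upward. The plot of list means by array shows these lists side by side.

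**Figure D4:**
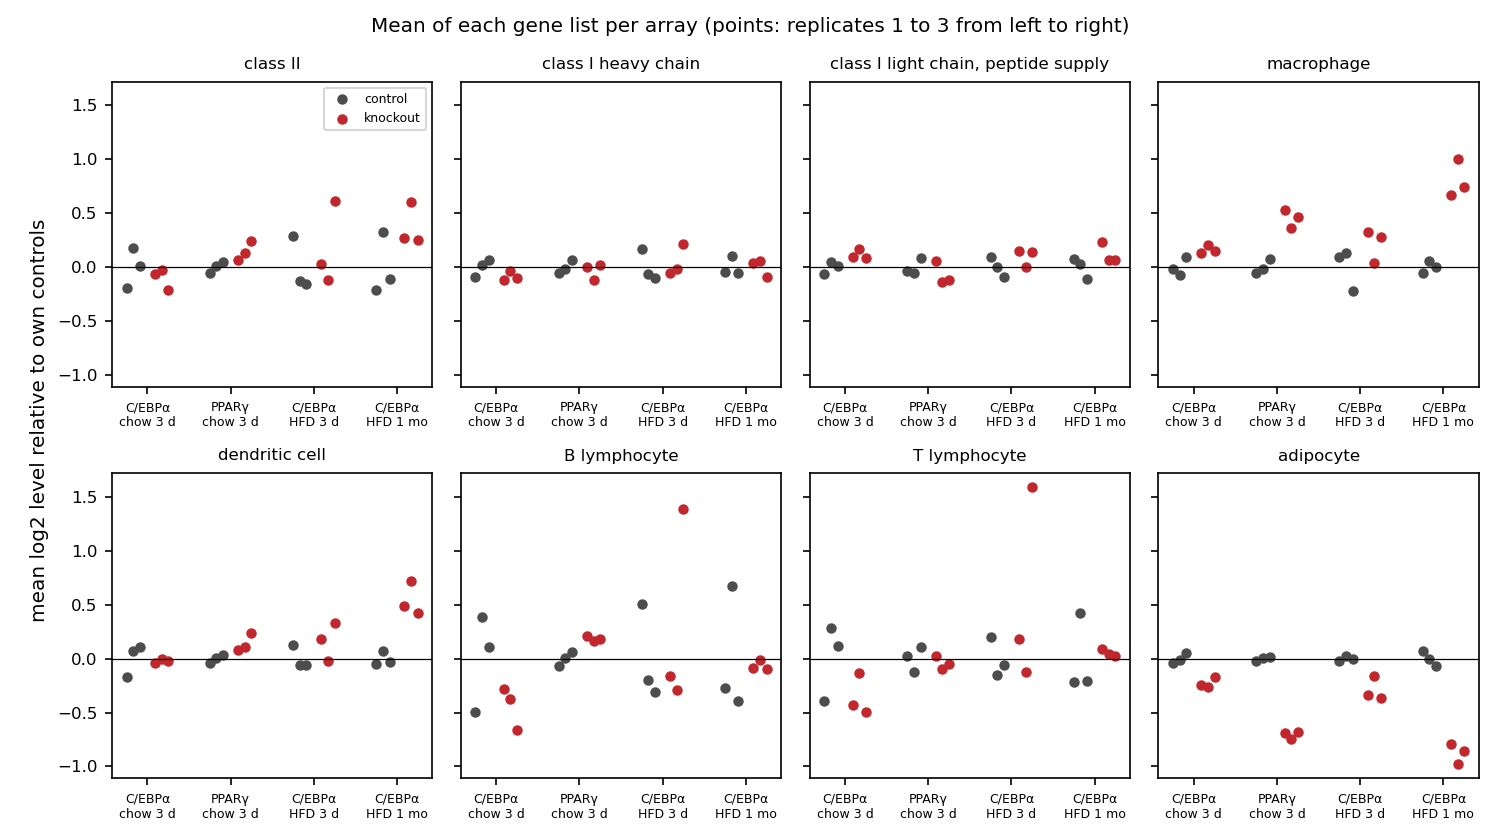
Mean log2 level of each gene list in every array, relative to the mean of its own controls; points are replicates 1 to 3 from left to right in controls and knockouts of the 4 sets. At 1 month of high fat diet (HFD 1 mo) the macrophage means of the knockouts are 0.67, 1.00 and 0.75, and the class II means 0.27, 0.60 and 0.25 beside a control at 0.32; the B and T lymphocyte means stand out in single arrays, up to 1.38 and 1.59 in 1 knockout at 3 days of high fat diet.

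H2-Oa, H2-Ob and H2-M2 stood out in single arrays of controls and of knockouts, and were not called in any comparison. H2-Oa and H2-Ob encode the H2-O chains that restrain H2-DM, mainly in B lymphocytes, and H2-M2 is a nonclassical heavy chain. At 3 days of high fat diet H2-M2 measured 32.0, 7.53 and 15.7 in the controls and 13.2, 13.1 and 418 in the knockouts. On the same arrays H2-Oa measured 61.2, 20.7 and 17.9 against 34.0, 24.6 and 193, and H2-Ob measured 44.3, 21.6 and 6.30 against 14.8, 7.15 and 100.2. Knockout replicate 3 was the highest array for all of them and control replicate 1 the next. That knockout array was also the highest for the T lymphocyte marker Cd3d, at 609 against 27.8 to 71.5 in the other arrays of the set, and for the B lymphocyte marker Cd79b, at 459 against 26.0 to 140. Without it the log2 changes went from 1.12 to -0.18 for H2-M2, from 0.71 to -0.02 for H2-Oa and from 0.24 to -0.47 for H2-Ob, none called with or without it.

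The same genes stood out with lymphocyte markers in the set of 1 month, and H2-M2 also stood out in the C/EBPα set on chow. At 1 month control replicate 2 had the highest H2-M2 (115, against 15.0 to 47.4 in the other arrays), H2-Oa (82.5, against 8.65 to 48.7) and H2-Ob (48.3, against 11.6 to 20.2), and also the highest Cd79b (229, against 22.7 to 57.6) and Cd3d (109.02, against 33.8 to 59.0). On chow, control replicates 2 and 3 of the C/EBPα set had H2-M2 at 290 and 254, against 35.2 to 88.9 in the other arrays, and its log2 change of -1.62 ± 0.73 did not pass (adjusted p = 0.27). These pairs of genes were put side by side after their values were seen. Of the lymphocyte markers Cd4 and Pax5 stayed near background, at 2.17 to 15.3 and 1.57 to 11.6 over the 24 arrays, and Cd8a, Cd5 and Cr2 were below the filter. The summed B lymphocyte markers ran from 108 to 464 in the controls and from 179 to 244 in the knockouts at 1 month, and from 111 to 326 against 121 to 898 at 3 days of high fat diet. Their part in these values was not tested. Without the control array of 1 month, 7 class II genes were called in place of 5, and the change of H2-Oa went from 0.25 to 0.84 and that of H2-Ob from -0.34 to 0.00.

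**Figure D5:**
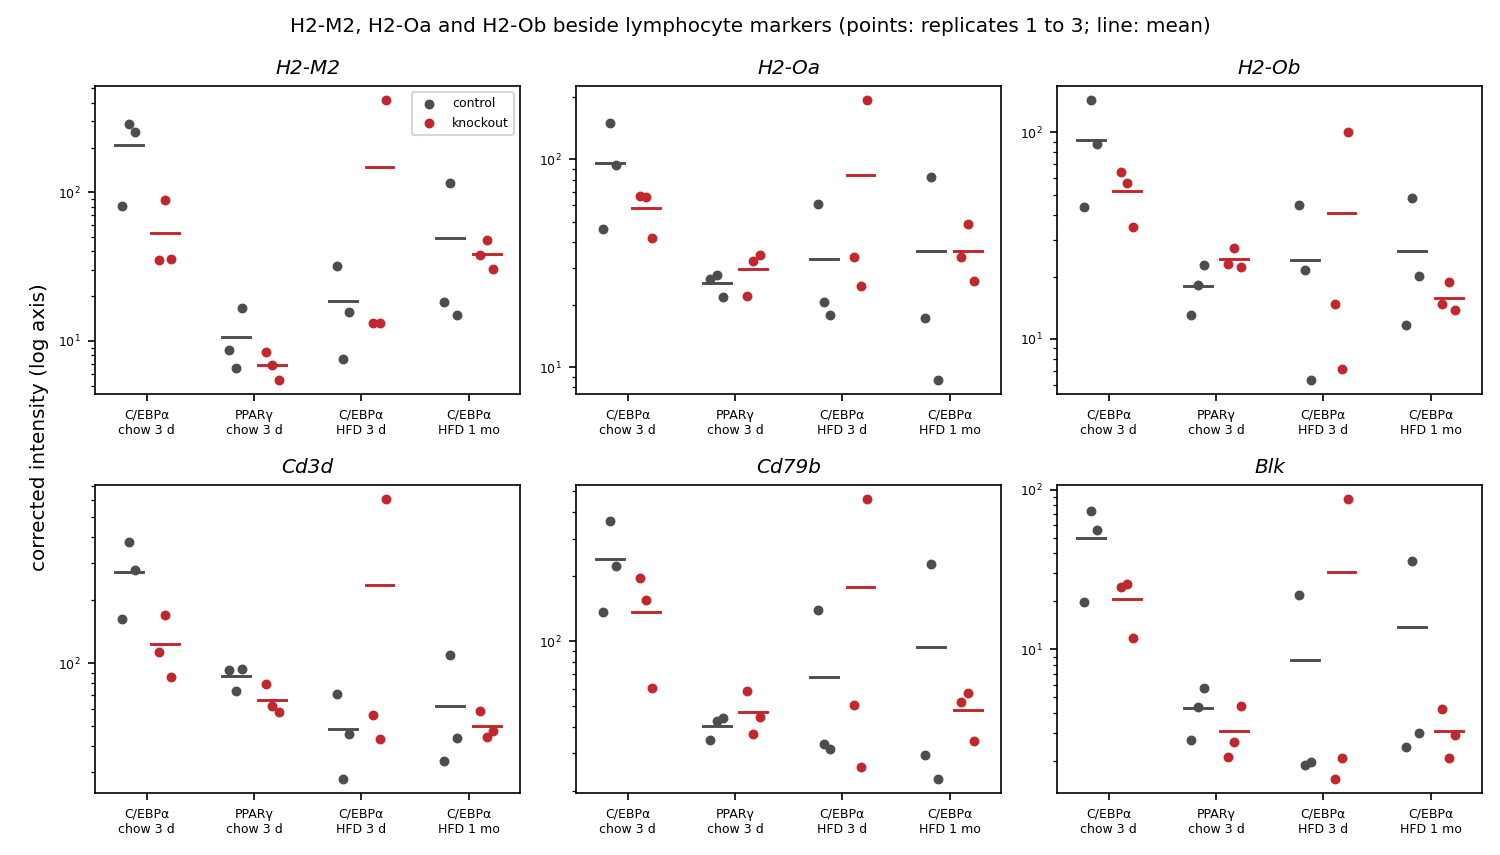
Corrected intensity (log axis) of H2-M2, H2-Oa and H2-Ob beside the lymphocyte markers Cd3d, Cd79b and Blk in every array; points are replicates 1 to 3 of the controls and the knockouts in each of the 4 sets and lines are group means. Knockout replicate 3 at 3 days of high fat diet (HFD 3 d) and control replicate 2 at 1 month (HFD 1 mo) are the highest arrays of their sets in each of the 6 panels.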

How the data were processed

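The authors' deposited table holds linear probe intensities of 45281 probes on 24 arrays. The sorted values nearly coincide within each set of 6 arrays and differ between the 4 sets, so they appear quantile-normalized per set with no background subtracted; the normalization method is not given in the sources used here. Another deposited file of intensities, with 96 per-array columns that no label pairs with a sample, was not used. Each set's background (132, 114, 104 and 108) was taken as the mode of its log2 intensities and corrected with normexp; 16 was added before log2. Probes above background (5% false positive rate) in at least 3 arrays were kept (30257 probes). Gene names came from GEO's platform annotation (34885 probes with 1 symbol, 18 with several, 10378 not listed), updated through Entrez IDs in RefSeq GRCm38.p6 (34807 found). Tests were limma 3.58.1 in R 4.3.3 (8 group means, eBayes, two-sided), tested on simulated data. The number of arrays limits the precision. No arrays were identical; correlations within groups were at least 0.987. Members and gene lists were chosen with earlier results of these data known. Array values are given for Cd74, H2-Aa, H2-Ab1, H2-Eb1, Ciita, H2-K1, H2-D1, B2m, Tap1, Psmb8 and each other member called; at most 4 genes of each other list are named by smallest adjusted p, and others named were chosen after their values were seen. Alternatives were background correction, offset, filter, probe choice, arrays fitted, replicate block, weights, scaling and leaving out each array.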

Additional observations from a re-analysis of the deposited data

Results flagged for a closer look

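H2-M11 stood out because the fit called its C/EBPα knockout effect on chow different from the effects in other sets. The PPARγ knockout effect minus the C/EBPα knockout effect on chow was -0.84 on the log2 scale (adjusted p = 0.0101), and the C/EBPα effect at 3 days of high fat diet minus that on chow was -0.95 (adjusted p = 0.0488). The gene was above background in the 3 C/EBPα knockout arrays on chow only, at corrected intensities of 27.6, 15.5 and 36.3. It entered the tests through those arrays alone and was at background in every other group. Both differences were thus taken against the floor and are given as values only. With no filter on dim probes the gene was also called in both. The second difference was lost in 20 of 24 omissions of an array and in 7 of 10 other settings.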

How the results depend on the processing

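The 11 alternative settings and 24 single-array omissions turned the sign of 0 called member results; 1590 kept their side of the threshold, 72 fell short of it and 14 passed it. These counts cover the genes with array values named above and the members called. Most of these results were not called in the main fit, and the omissions include arrays of other sets, so the counts do not measure how stable the calls were. Values that were not called did change sign, such as H2-K1 at 1 month (-0.11 to 0.29) and Ciita at 3 days of high fat diet (-0.03 to 0.48). Cd74, H2-DMa, H2-M3 and Psmb8 at 1 month were called in 35 of 35 alternatives, H2-Ab1, H2-DMb1 and Psmb9 in 32, H2-Aa in 17 and Ciita in 9. With only the arrays of the comparison, where few degrees of freedom remain, 5 members were called at 1 month (Cd74, Ciita, H2-DMa, H2-M3 and Psmb8), 3 of them class II, and 0 members on chow; genes called were 1 on chow and 78 at 3 days of high fat diet, and for the differences 250 (with 0 members), 0 and 139. Leaving out arrays, members called at 1 month ranged from 5 to 10, class II members from 3 to 7, members on chow from 1 to 2, in the PPARγ set from 0 to 0 and at 3 days of high fat diet from 0 to 2. Genes called ranged from 106 to 172, 673 to 1455, 171 to 441 and 1847 to 2691 in the 4 comparisons, and from 200 to 483, 0 to 26 and 152 to 282 in the differences, where members ranged from 1 to 1, 0 to 1 and 0 to 1. On chow 295 genes were called with no background correction, 342 with offset 50, 84 with set weights, 56 with array weights and 87 with quantile normalization over all arrays; 1 member was called under the last 3, and 0 with a filter of 12 arrays, which neither H2-M11 nor H2-Q10 passes. Averaging probes called 1 member in the PPARγ set (Tapbp, lower) and 2 in its difference from C/EBPα (H2-M11 and Tapbp); array weights called H2-DMb2 there (1 member) and, at 3 days of high fat diet, 617 genes and 2 members (H2-Ea and Psmb8), while 1 member was called there with no background correction (Psmb8) or quantile normalization over all arrays (H2-Ea). For the PPARγ difference the filter of 12 arrays left 0 members. For high fat diet against chow at 3 days, genes called were 5 with no background correction, 16 with offset 50 and 0 with the filter of 12 arrays, set weights or quantile normalization, and 0 members were called in these or with array weights. The cause of these changes was not tested except where stated. Same-numbered arrays did not deviate together (correlations from -0.26 to 0.096), and the replicate numbers were not treated as pairs in the main fit. Such correlations cannot exclude a pairing. With the replicate block, 66, 976, 227 and 2272 genes were called in the 4 comparisons and 217, 0 and 169 in the differences, with 1, 0, 0 and 8 members (5 class II) and 1, 0 and 1 (H2-Ab1 at 1 month against 3 days). Signal near background limits H2-Bl, H2-Ea and H2-T24 in every set and H2-M11, H2-Q10 and H2-T22 outside the C/EBPα chow set. H2-Ea was in the tests only through knockout arrays, so that its calls under these settings are descriptions.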
